A study of Mus musculus with 22 samples.

Results

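The genes described here encode the heterotrimeric G proteins and the regulators of G protein signaling (RGS proteins). They were chosen by symbol: the alpha subunit genes Gnai1 to Gnai3, Gnao1, Gnaz, Gnas, Gnal, Gnaq and Gna11 to Gna15, the beta subunit genes Gnb1 to Gnb5, every gamma subunit gene written as Gng and a number, and every gene written as Rgs and a number except Rgs9. This gave 48 genes among 20239 named features tested, 28 of them subunit genes and 20 of them RGS genes. Cerebral cortex and hippocampus had been dissected from 11 females, 6 of them Ts1Cje and 5 their wild-type (WT) littermates, at an age of 8 to 10 weeks. Each animal gave 1 Affymetrix whole-transcript array (mouse gene ST) per region. Ts1Cje mice model Down syndrome: a distal segment of chromosome 16 is present in an additional copy, joined to another chromosome. Ts1Cje males of the colony had been backcrossed to C57Bl/6J. The study asked which genes the extra segment changes and which changes the regions share. In the RefSeq gene order, 0 of the 48 genes lie between Sod1 and Zbtb21, the stretch that holds the triplicated genes, so none belongs to the triplicated genes.

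Heterotrimeric G proteins relay the signal of membrane receptors. A receptor loads the alpha subunit with GTP, the alpha subunit and the beta-gamma pair then separate and act on cyclases, phospholipases and ion channels, and the signal ends when the alpha subunit hydrolyses its GTP. RGS proteins speed up that hydrolysis. In the brain these proteins set the strength and duration of responses to dopamine, acetylcholine, opioids, glutamate and many peptides.

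Values were log2 signals, and a difference of 1 is a 2-fold difference. Array medians ran from 7.53 to 7.62 for cortex and from 6.91 to 6.95 for hippocampus. Regions were therefore compared after each array was centred on its own median. Within a region the deposited values were used. A gene was called at an adjusted p under 0.05, from limma with Benjamini-Hochberg adjustment over all 20239 features. Animals 60 (WT) and 64 (Ts1Cje) stood apart in both regions: the SD of their values over all features was 1.86 and 1.95 in cortex and 2.06 and 1.98 in hippocampus, against 2.17 to 2.22 and 2.14 to 2.19 in the other arrays. Among the 37 members brighter than the median feature, 32 and 29 were lower in the cortex of animals 60 and 64 than the mean of the other animals, and 27 and 27 in the hippocampus. Results are therefore also given without these animals. The regions also differed in the RNA extraction kit, so region and kit cannot be told apart. In bulk tissue, fewer cells of a type and less RNA per cell cannot be told apart either.

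The tissue labels were set against marker genes. All 12 hippocampal neuron markers were called higher in hippocampus (median difference 1.92), and 8 of 10 cortical markers were called higher in cortex, while the remaining 2 were higher in hippocampus. The cortex arrays also held strong signals of striatal neuron markers. Drd2, the dopamine receptor of indirect pathway neurons, lay at the 90.8th percentile of all features in cortex with a mean log2 signal of 10.32, against the 50.2nd percentile in hippocampus. Drd1 lay at the 83.6th and the 57.5th percentile. All 13 measured striatal markers were called lower in hippocampus, with a median difference of -1.65. The mean of the 13 centred signals ranged from 1.91 to 2.51 in WT cortex, from 2.25 to 2.53 in Ts1Cje cortex, from 0.59 to 0.72 in WT hippocampus and from 0.65 to 0.89 in Ts1Cje hippocampus. Several of the members below are known for striatal expression, and the part of striatal tissue in their region difference was not tested.

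Between the regions, 31 of the 48 members differed, which is 64.6% against 41.4% of all features (limma, adjusted p under 0.05). Of these, 14 were higher in hippocampus, beside 20.2% of all features, and 17 were lower, beside 21.2%. The median difference over the members was -0.01, against -0.0040 over all features. Without animals 60 and 64, 33 members (68.8%) were called, beside 65.5% of all features, a share near the background. Only 3 members differed at least 2-fold, all lower in hippocampus: Rgs6, Rgs4 and Gnal. At that size 1.78% of all features were called, and 0.934% in that direction. A further 7 members reached a difference of 0.5, which gave 10 members beside 9.09% of all features. The arrays of the regions did not overlap for 8 members, Rgs6, Rgs4, Gnal, Rgs20, Gng4 and Gnb5 lower in hippocampus and Rgs14 and Rgs19 higher, beside 9.71% of all features. The direction of small differences rests on the centring. Without centring, the split of called members was 1 higher and 42 lower, and the 14 members higher after centring all turned lower except Rgs14 and Rgs19.

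**Figure D1:**
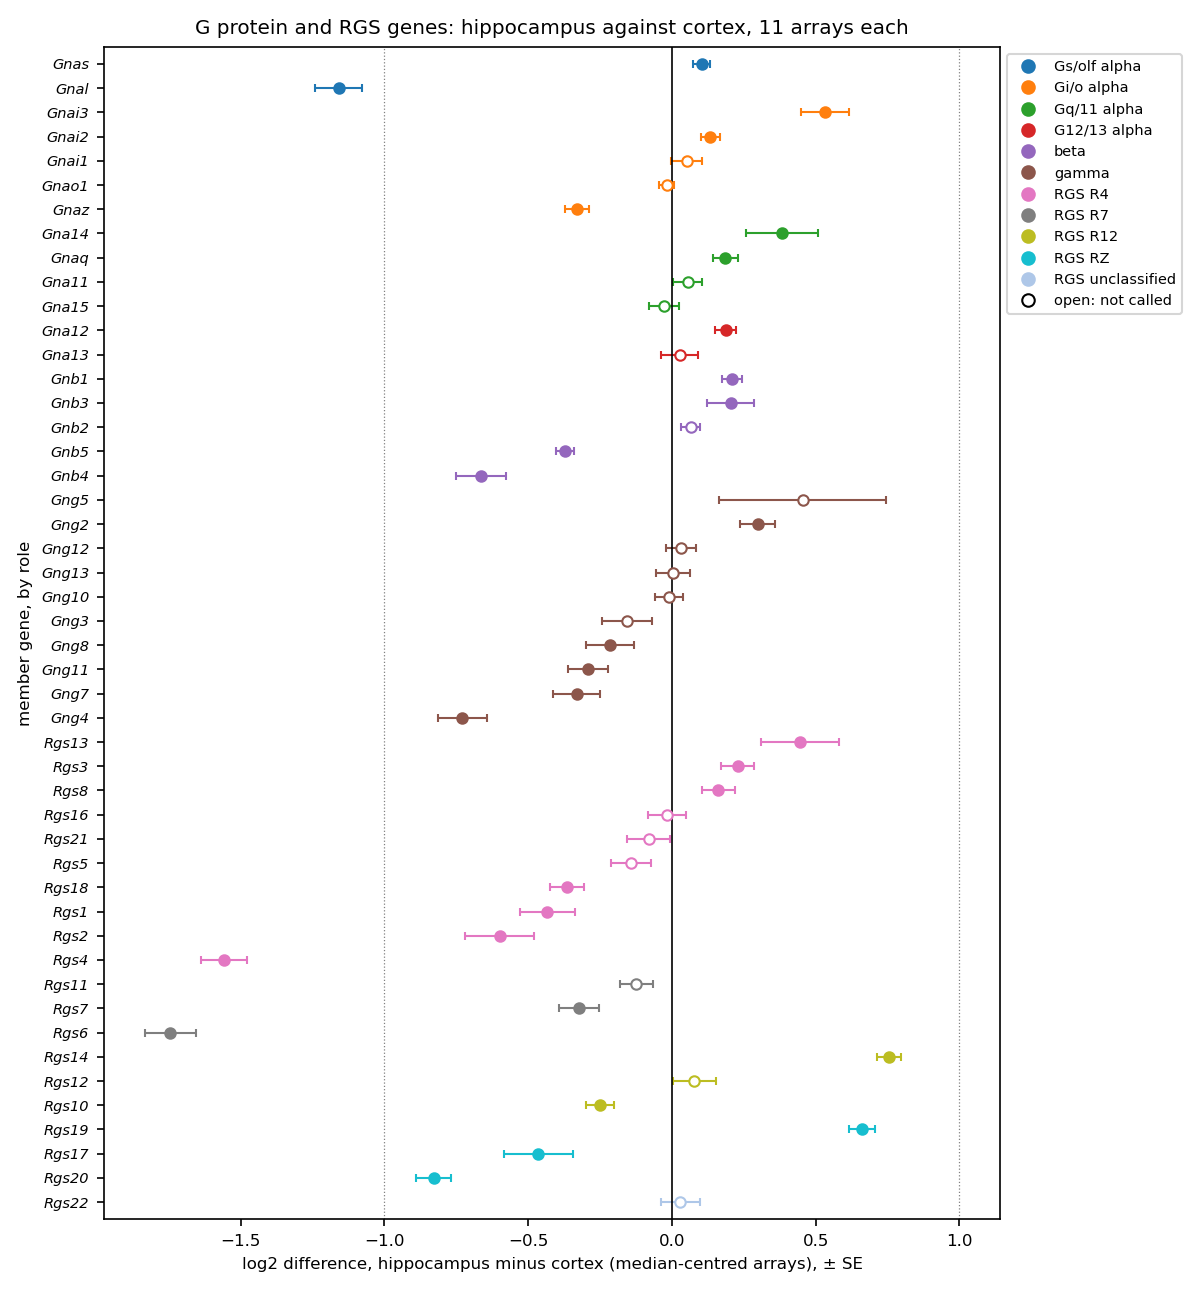
Differences in log2 signal between hippocampus and cortex for the 48 members, grouped by role on the vertical axis. Points are limma estimates on median-centred arrays, bars are standard errors over 11 arrays per region, filled points were called, and dotted lines mark a 2-fold difference. Rgs6, Rgs4 and Gnal lie left of the 2-fold line, at -1.75, -1.56 and -1.16, and Rgs14 is the highest, at 0.76.

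Among the alpha subunits, Gnal showed the widest gap between regions. Gnal encodes the olfactory alpha subunit, which couples dopamine and adenosine receptors of striatal neurons to adenylyl cyclase. Its centred signal was 2.73 to 3.41 in the 11 cortex arrays (median 3.11) and 1.57 to 2.14 in the 11 hippocampus arrays (median 1.95). The highest hippocampus array lay below the lowest cortex array. The signal was 2.23-fold lower in hippocampus (log2 difference -1.16, SE 0.0817, adjusted p = 1.65e-10 with limma), and it was lower in 11 of 11 animals. The difference within an animal ran from -1.46 in Ts1Cje animal 87 to -0.86 in WT animal 98. These were the animals with the highest (2.53) and the lowest (1.91) mean of striatal markers in their cortex arrays. The animals in between did not all keep this order. WT animal 95, with a mean of 2.51, gave -1.23, and Ts1Cje animal 63, with a mean of 2.40, gave -1.43. A relation between this mean and the Gnal difference was not tested.

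Its relative Gnas, which encodes the stimulatory alpha subunit found in most cells, was among the brightest members and differed little, by 0.10 (adjusted p = 0.00727). The difference of Gnas was -0.53 without centring.

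Of the 5 alpha subunits of the inhibitory class, Gnai3 and Gnai2 were called higher in hippocampus after centring, Gnaz was called lower, and Gnai1 and Gnao1 were not called. Gnai3 ranged from 0.43 to 1.13 in cortex (median 0.94) and from 1.05 to 1.51 in hippocampus (median 1.46). Its ranges overlapped through Ts1Cje animal 64, the lowest hippocampus array. The difference was 0.53 (SE 0.0831, adjusted p = 2.16e-05, limma), and 0.46 without animals 60 and 64. Without centring it was -0.10. Gnai2 differed by 0.13 and Gnaz by -0.33 (adjusted p = 1.1e-06). Gnaz encodes an alpha subunit that hydrolyses GTP slowly and does not respond to pertussis toxin. Gnao1, one of the most abundant G protein genes of the brain and the second brightest member, differed by -0.02 with a 95% interval from -0.07 to 0.04.

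The alpha subunits that activate phospholipase C are those of the Gq class. Gnaq and Gna14 were called higher in hippocampus, by 0.19 and 0.38, while Gna11 (0.06) and Gna15 (-0.03) were not called. Gna14 was among the dim members, at the 27.7th percentile of all features, and was not called without animal 98 (adjusted p = 0.053, limma). Of the remaining alpha subunits, Gna12 was called higher by 0.19 and Gna13 was not called (0.03). The called members of these classes turned lower without centring.

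Beta subunits pair with gamma subunits, and Gnb4 showed the widest difference among the 5. Its centred signal was 0.92 to 1.97 in cortex (median 1.73) and 0.85 to 1.24 in hippocampus (median 0.97). WT animal 60 gave the 0.92, and the other 10 cortex arrays, at 1.49 or more, lay above every hippocampus array. The difference was -0.66 (SE 0.0873, adjusted p = 2.24e-06), and -0.76 without animals 60 and 64. Gnb5, the outlying beta subunit that binds RGS proteins of the R7 family in place of gamma subunits, was lower in hippocampus by 0.37 on the log2 scale. Its limma estimate was -0.37 (SE 0.0312, adjusted p = 2.9e-09), lower in 11 of 11 animals. Gnb1, the brightest of all members, was higher by 0.21 after centring, but the sign turned under quantile normalization (-0.08) and without centring (-0.42). Gnb3 was called higher, but in only 2 of 11 fits that left out 1 animal (adjusted p up to 0.116, limma). Gnb2 was not called.

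Of the 10 gamma subunits, 4 were called lower in hippocampus (Gng4, Gng7, Gng11 and Gng8) and 1 higher (Gng2). The Gng8 call was kept in 4 of 11 fits that left out 1 animal (adjusted p up to 0.13, limma). Gng4 ranged from 1.93 to 2.71 in cortex (median 2.24) and from 1.39 to 1.78 in hippocampus (median 1.54), with no overlap. The difference was -0.73 (SE 0.0867, adjusted p = 5.61e-07). Gng7, which assembles with the Gnal product in striatal neurons, was lower by 0.33 on the log2 scale (difference -0.33, adjusted p = 0.00248) in 10 of 11 animals. The exception was WT animal 98, at 0.05, whose cortex array also had the lowest striatal marker mean. WT animal 95, whose cortex array had the highest such mean among WT (2.51), gave -0.27, where the median animal gave -0.36. A relation between this mean and the Gng7 difference was not tested. Gng2 was higher by 0.30 after centring and lower without it (-0.33).

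Gng5 could not be placed from all arrays. It stood at 6.78 in the cortex and 8.16 in the hippocampus of WT animal 60, and at 7.73 and 6.88 in those of Ts1Cje animal 64. The other 9 animals gave 8.76 to 9.48 in cortex and 8.50 to 9.05 in hippocampus. The centred difference was 0.45 (SE 0.291, adjusted p = 0.227), and 0.33 without these animals (adjusted p = 0.00153).

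Of the 20 RGS genes, 9 were called lower in hippocampus, beside 21.2% of all features, and 5 were called higher, beside 20.2%. Their median difference was -0.13, and the lower calls were not tested against the higher ones. The R4 family holds small proteins that consist of little more than the RGS domain. Of its 10 members, Rgs4, Rgs2, Rgs1 and Rgs18 were called lower and Rgs13, Rgs3 and Rgs8 higher. The latter 3 turned lower without centring, and Rgs8 was called in 5 of 11 fits that left out 1 animal (adjusted p up to 0.0861, limma).

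Rgs4 acts on the inhibitory and Gq alpha subunits and is known for its high level in cortical neurons. Its centred signal was 3.42 to 4.09 in cortex (median 3.93) and 1.98 to 2.46 in hippocampus (median 2.29). The lowest cortex array lay above the highest hippocampus array. The signal was 2.94-fold lower in hippocampus (difference -1.56, SE 0.0795, adjusted p = 7.99e-13), with -1.81 to -1.30 in the single animals.

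Rgs2 encodes a regulator that prefers Gq and is known as a gene switched on quickly by neuronal activity. It ranged from 1.30 to 2.40 in cortex (median 2.13) and from 1.00 to 1.77 in hippocampus (median 1.37). The cortex arrays of animals 60 and 64 were the 2 lowest and overlapped the hippocampus arrays, while the other 9 cortex arrays, at 1.95 or more, did not. The difference was -0.60 (SE 0.121, adjusted p = 0.00037), and -0.69 without these animals. All 12 genes of a list of activity-induced genes had an estimate below 0 in the same comparison, 5 of them were called, and the list's median was -0.39. Their part in the Rgs2 difference was not tested.

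The 200 bases upstream of the annotated start are shown for 3 members lower in hippocampus, Rgs4 and Rgs6 because they differed most, and Rgs2 because it is known as an activity-induced gene. They come from the RefSeq promoter table of build GRCm38.p6, which held 36 of the 48 members, and run 5' to 3' on the gene's strand. Capitals mark matches on either strand to TGACGT (the core of the cyclic AMP response element), TATAAA (the TATA box) and GGGCGG (the GC box, bound by Sp1). The windows are chr1:169747643-169747842 (minus strand), chr12:82617299-82617498 (plus strand) and chr1:144004150-144004349 (minus strand).
Rgs4: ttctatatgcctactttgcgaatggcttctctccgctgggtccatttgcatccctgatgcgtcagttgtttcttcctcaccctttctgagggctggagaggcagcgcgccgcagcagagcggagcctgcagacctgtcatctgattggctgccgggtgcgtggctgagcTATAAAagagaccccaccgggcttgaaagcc
Rgs6: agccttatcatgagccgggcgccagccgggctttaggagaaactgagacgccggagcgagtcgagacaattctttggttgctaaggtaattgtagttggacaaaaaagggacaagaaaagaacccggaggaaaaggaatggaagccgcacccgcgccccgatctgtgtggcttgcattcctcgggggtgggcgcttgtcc
Rgs2: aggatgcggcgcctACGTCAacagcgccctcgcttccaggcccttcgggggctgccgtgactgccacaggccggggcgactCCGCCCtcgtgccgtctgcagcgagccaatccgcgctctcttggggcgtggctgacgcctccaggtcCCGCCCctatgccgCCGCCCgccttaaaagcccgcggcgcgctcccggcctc
The Rgs4 window held a TATA box 31 bases upstream of the start. The Rgs2 window held the cyclic AMP element core 186 bases upstream and 3 GC boxes, and the Rgs6 window held none of the 3 motifs. In windows of 250 bases, TGACGT occurred in 6.47% of all 32851 promoters and in 2 of the 36 members with an entry, Rgs2 and Gng4. TATAAA occurred in 12.4% of all promoters and in 4 members, and GGGCGG in 32.7% and in 21 members. A match describes letters only.

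The R7 family forms stable pairs with the Gnb5 product and is found mainly in neurons. Rgs6 showed the largest difference of all 48 members. Its centred signal was 1.54 to 2.28 in cortex (median 2.13) and 0.05 to 0.50 in hippocampus (median 0.33), with no overlap. It was 3.35-fold lower in hippocampus (difference -1.75, SE 0.0885, adjusted p = 7.16e-13). The single animals gave -2.13 to -1.08, and the smallest difference was that of WT animal 60. Rgs7 was called lower by a smaller amount (difference -0.32, adjusted p = 0.000626), and Rgs11 was not called (-0.12, adjusted p = 0.0888). Rgs9, the striatal member of the family that the selection left out, differed by -2.30 (SE 0.084, adjusted p = 3.95e-15). Its mean deposited signal was 10.29 in cortex and 7.36 in hippocampus. The estimates of the partner Gnb5, of the membrane anchor Rgs7bp (-0.14, adjusted p = 0.00901) and of Gpr158 (-0.49, adjusted p = 2.05e-06), a receptor that recruits RGS7, were also below 0, and all 3 were called.

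**Figure D2:**
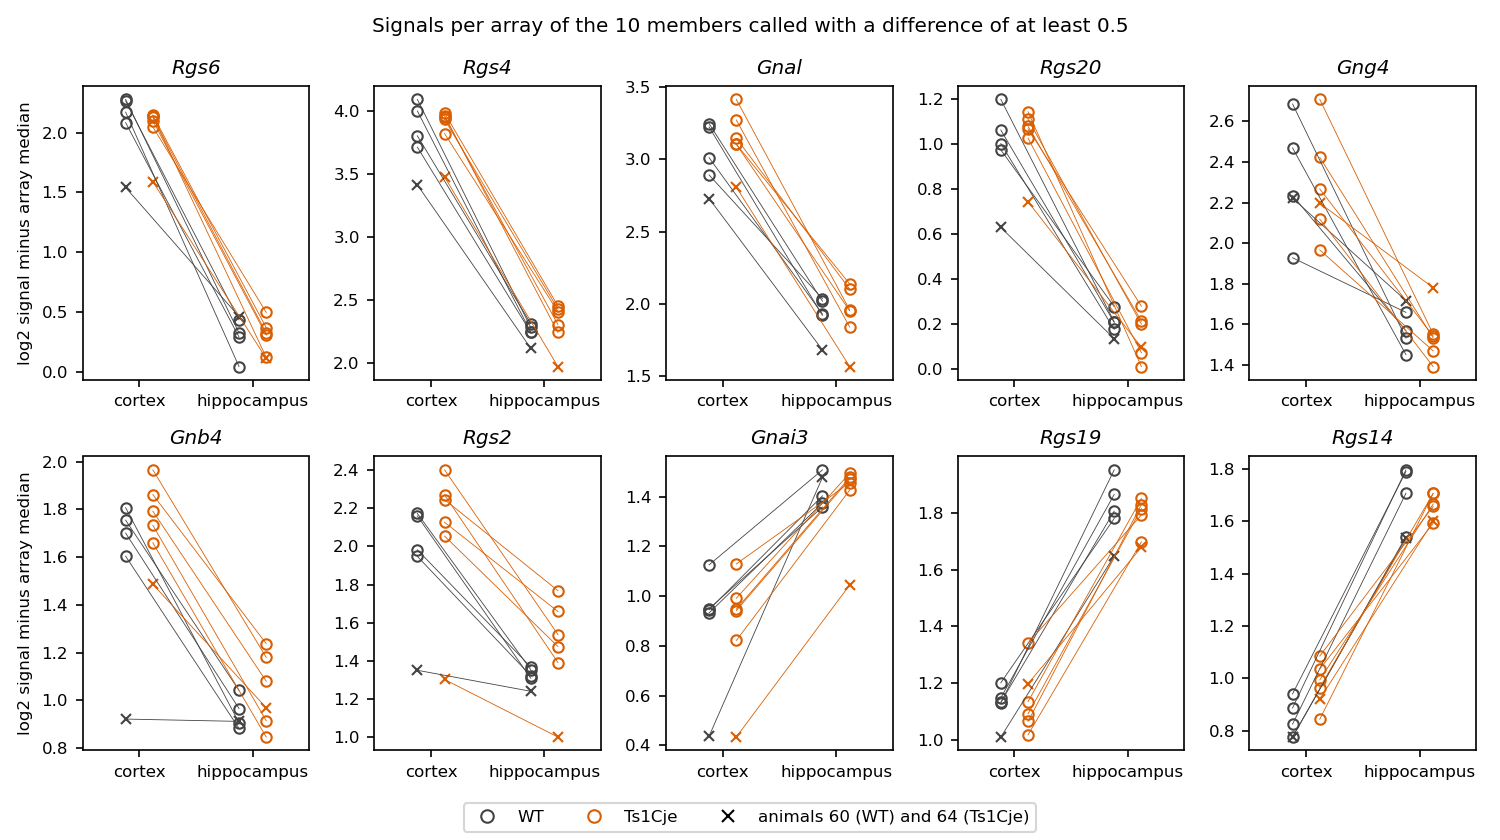
Centred log2 signal of the 10 members called with a difference of at least 0.5, for each of the 22 arrays. Lines join the arrays of an animal, dark grey is WT and orange Ts1Cje, and crosses mark animals 60 and 64. Every line falls for Rgs6, Rgs4, Gnal, Rgs20, Gng4, Gnb4 and Rgs2 and climbs for Gnai3, Rgs19 and Rgs14, and the line of animal 60 is nearly flat for Gnb4.

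The R12 family was mixed. Rgs14, which binds inhibitory alpha subunits and is known for its high level in CA2 pyramidal neurons of the hippocampus, was the member with the largest excess in hippocampus. It ranged from 0.78 to 1.08 in cortex (median 0.92) and from 1.54 to 1.80 in hippocampus (median 1.67), with no overlap. It was 1.69-fold higher in hippocampus (difference 0.76, SE 0.042, adjusted p = 3.17e-12), and it was also called higher without centring (0.13). Of 5 measured CA2 markers other than Rgs14, 4 were called higher in hippocampus, and their mean centred signal was 0.55 to 0.68 there and -0.10 to 0.22 in cortex. Rgs10, known for its high level in microglia, was lower by 0.25 on the log2 scale (difference -0.25, adjusted p = 0.00023). Of 13 microglial markers 3 were called lower and none higher, and their median difference was -0.03. Rgs1 and Rgs18, regulators known from blood cells and dim on these arrays, were called lower too, by -0.43 and -0.36. Rgs12 was not called (0.08).

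The RZ family prefers the Gnaz product and the inhibitory subunits, and its members went different ways. Rgs20 was 1.78-fold lower in hippocampus (difference -0.83, SE 0.0601, adjusted p = 2.68e-10). It ranged from 0.63 to 1.20 in cortex (median 1.06) and from 0.01 to 0.28 in hippocampus (median 0.20), so the regions did not overlap. Rgs17 was lower by 0.46 on the log2 scale (difference -0.46, SE 0.119, adjusted p = 0.00326), and by -0.56 without animals 60 and 64. Rgs19 was 1.58-fold higher (difference 0.66, SE 0.0447, adjusted p = 8.37e-11). It ranged from 1.01 to 1.34 in cortex (median 1.13) and from 1.65 to 1.95 in hippocampus (median 1.81), with no overlap, and without centring its difference was 0.03 and was not called.

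Among 45 measured genes of 46 on lists of the wider pathway, 6 were called higher in hippocampus, beside 20.2% of all features, and 19 lower, beside 21.2%. Of the 4 phospholipases that Gq activates, 3 were lower, led by Plcb4 (difference -1.61, SE 0.0934, adjusted p = 6.67e-12) and Plcb1 (-0.65, adjusted p = 4.56e-07). The remaining 1 was called higher (0.16). Of the 10 adenylyl cyclases, 4 were lower and 2 higher. Adcy5, the main cyclase of striatal neurons and itself on the list of striatal markers, differed by -1.003 (adjusted p = 4.23e-12), while Adcy9 (0.34) and Adcy1 (0.20), the calmodulin-dependent cyclase, were higher. Ric8b, a chaperone of the Gnas and Gnal products, differed by -0.79 (adjusted p = 2.11e-07), and 5 of 11 regulators and chaperones were lower and 0 higher. Of the potassium channel genes opened by beta-gamma pairs, 1 of 4 was lower and 1 higher. Receptor kinases and arrestins gave 2 lower and 1 higher of 7, and the 6 family genes outside the selection 3 lower and 1 higher.

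Other cell types had smaller median differences than the striatal, cortical and hippocampal neuron markers, apart from choroid plexus. Its 9 measured markers were all called higher in hippocampus (median 2.07). Single markers of the other lists could still differ widely and in opposite directions, from -0.76 to 1.20 for interneurons and from -0.49 to 0.74 for thalamus. The counts below stand beside 20.2% of all features called higher and 21.2% called lower. Interneuron markers gave 6 lower and 2 higher of 10 (median -0.16), endothelial markers 3 lower of 10 (-0.10), and medial habenula 3 lower and 1 higher of 7 (-0.31). Thalamic markers gave 3 higher and 3 lower of 8 (0.11). Astrocyte markers gave 4 higher and 1 lower of 9 (0.05), oligodendrocyte markers 4 higher of 9 (0.06), and mural cell markers 3 higher of 9 (-0.01). Rgs5, a marker of pericytes, was not called (-0.14, adjusted p = 0.107), and was called without animals 60 and 64 (-0.19, adjusted p = 0.000959).

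The second question was whether the extra segment changed these genes. In cortex, 0 of the 48 members were called between 6 Ts1Cje and 5 WT animals (limma, adjusted p 1.00 for every member), where 1 of all features was called, which is 0.00494%. At an unadjusted p under 0.05 there were 2 members, Rgs14 and Rgs13, or 4.17% beside 1.30% of all features. This count was 0 after quantile normalization, on centred arrays, and without any 1 of animals 62, 63, 87, 94, 95 and 97. The 95% interval of the difference lay within a 2-fold change in both directions for 47 of 48 members and within 0.5 on the log2 scale for 43. The exception at 2-fold was Gng5. No member had Ts1Cje and WT arrays that did not overlap, beside 0.306% of all features. The estimates of 38 members were above 0, with a median of 0.04, against 9818 of all features and a median of -0.0034. Without WT animal 60 alone, 28 of the 48 were above 0, with a median of 0.0175, near the 0.0132 of all features. Without Ts1Cje animal 64 alone, 39 were above 0, with a median of 0.0616 against -0.0091 over all features. With both animals left out 34 were above 0, with a median of 0.03, against 10733 of all features.

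Rgs14 stood in cortex at 8.38, 8.36, 8.49, 8.43 and 8.33 in WT animals 60, 62, 65, 95 and 98, and at 8.40 to 8.62 in the 6 Ts1Cje animals (median 8.55). Of the Ts1Cje arrays, 4 lay above every WT array. The difference was 0.14 (SE 0.062, unadjusted p = 0.0432, adjusted p = 1.00, limma). Rgs13, a dim R4 member, stood at 5.11, 5.20, 5.68, 5.56 and 5.68 in the same WT animals and at 5.33 to 6.33 in Ts1Cje (median 5.84). The difference was 0.39 (SE 0.175, unadjusted p = 0.0462, limma). Rgs22 (-0.17), Gng10 (-0.15) and Rgs18 (0.13) followed in order of p, between 0.0833 and 0.122 before adjustment with limma. The Rgs22 estimate was -0.0979 without WT animal 60, and that of Gng10 was -0.0863 without Ts1Cje animal 63.

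Gng7 was next. It stood at 11.28, 10.77, 10.97, 10.98 and 10.49 in WT animals 60, 62, 65, 95 and 98 and at 10.90 to 11.34 in Ts1Cje (median 11.04). The groups overlapped, and the lowest array was that of WT animal 98. The difference was 0.18 (SE 0.131, unadjusted p = 0.188, limma). It was 0.08 without animal 98 and 0.28 without animal 60. Gnal stood at 10.33, 10.55, 10.78, 10.79 and 10.45 in the WT animals and at 10.37 to 10.95 in Ts1Cje (median 10.71), with a difference of 0.13 (SE 0.116, unadjusted p = 0.29, limma). It was 0.0668 without animal 60 and 0.195 without animal 64. All 13 striatal markers had estimates above 0 in the same comparison, with a median of 0.13, and none was called. Other lists leaned the same way: thalamic markers with 7 of 8 above 0 (median 0.12), interneuron 9 of 10 (0.11) and oligodendrocyte 8 of 9 (0.09). Microglial markers gave 10 of 13 (0.09), endothelial 8 of 10 (0.07) and cortical neuron markers 6 of 10 (0.01). Hippocampal and CA2 neuron, medial habenula, choroid plexus, mural cell and astrocyte markers had more estimates below 0 than above. Several of these leanings turned without animals 60 and 64. Then 5 of 5 CA2, 4 of 7 medial habenula and 6 of 9 mural cell markers were above 0. Cortical neuron markers then gave 3 of 10 above 0 (median -0.01), and the remaining lists leaned as before. Animals 60 and 64 had the lowest Gnal signals of all cortex arrays, at 10.33 and 10.37, but not the lowest striatal marker means. Their means of deposited signals were 9.84 and 9.99, where the arrays ran from 9.47 in animal 98 to 10.07 in animal 87. Apart from animals 60 and 64, the cortex arrays lowest and highest in Gnal were those same 2 animals, 98 and 87. Whether striatal content accounts for the Gnal and Gng7 estimates was not tested.

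Rgs2 stood in cortex at 8.95, 9.48, 9.53, 9.71 and 9.71 in the WT animals and at 8.87 to 9.94 in Ts1Cje (median 9.75). Animals 60 and 64 were the lowest of their groups. The difference was 0.15 (SE 0.199, unadjusted p = 0.461, limma), and 0.17 without both animals (unadjusted p = 0.0536). It moved far more when only 1 of them was left out, to 0.0198 without animal 60 and 0.305 without animal 64. All 12 activity-induced genes had estimates above 0, with a median of 0.39, and none was called. Their mean centred signal was 0.36 to 1.45 in WT and 0.94 to 1.38 in Ts1Cje cortex. WT animal 65 was lowest and WT animal 98 highest, and their part in the Rgs2 estimate was not tested.

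**Figure D3:**
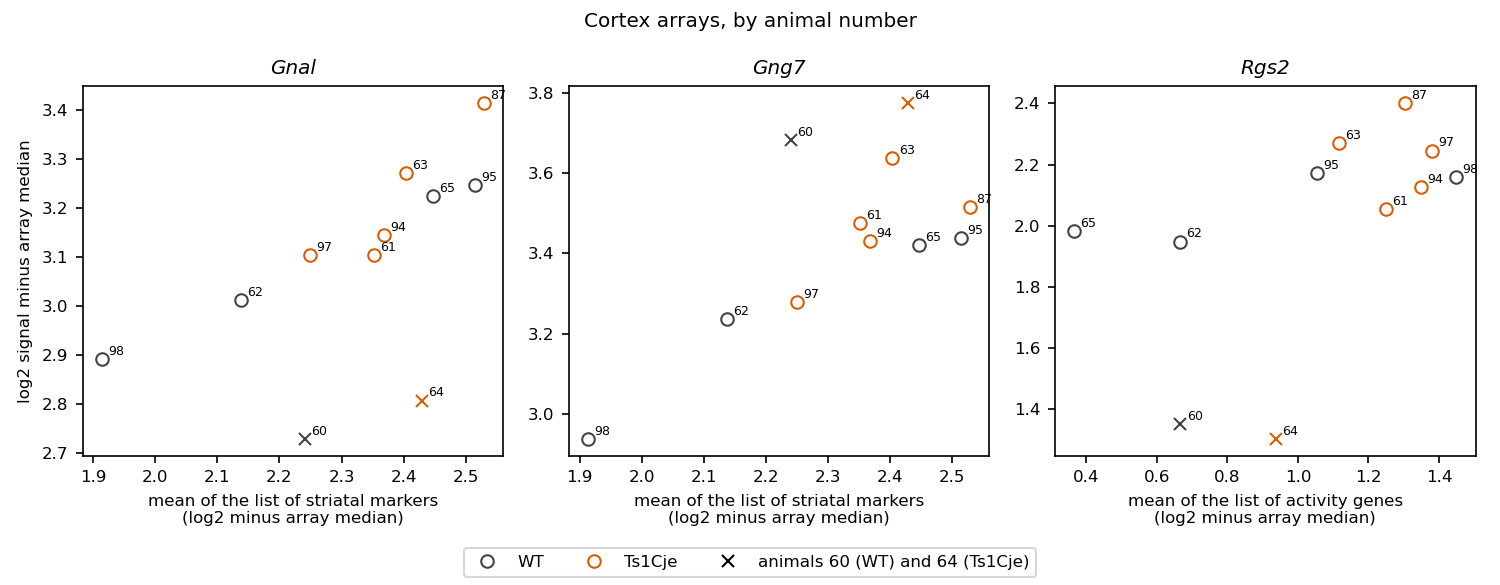
Centred log2 signal of Gnal and Gng7 against the mean of 13 striatal markers, and of Rgs2 against the mean of 12 activity-induced genes, in the 11 cortex arrays, labelled by animal. Dark grey is WT, orange Ts1Cje, and crosses mark animals 60 and 64. WT animal 98 is lowest on the striatal axis, at 1.91, and lies at the bottom for Gng7, while Rgs2 is lowest in the 2 crossed animals.

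In hippocampus, 0 of 48 members were called (limma, adjusted p 1.00 for each), beside 0.114% of all features, and 0 members reached an unadjusted p under 0.05, beside 3.71%. The 95% interval lay within 0.5 in both directions for 47 of 48 members, Gng5 again being the exception. The estimates of 22 members were above 0, with a median of -0.0033, against -0.0064 over all features. No member separated the genotypes, beside 0.637% of all features. The lowest unadjusted p was that of Rgs10, which stood at 9.09, 8.97, 9.12, 9.12 and 8.94 in WT animals 60, 62, 65, 95 and 98 and at 9.10 to 9.43 in Ts1Cje (median 9.12). The highest was Ts1Cje animal 64, and the difference was 0.13 (SE 0.0689, unadjusted p = 0.0794, limma), or 0.08 without that animal. Rgs12 stood at 7.81, 7.92, 7.89, 7.78 and 7.85 in WT and at 7.72 to 8.07 in Ts1Cje (median 8.00). Of the 6 Ts1Cje animals 5 lay above every WT animal, and animal 64 lay below them all. The difference was 0.12 (SE 0.0659, unadjusted p = 0.106, limma), and 0.15 without animals 60 and 64 (unadjusted p = 0.00657, adjusted p = 0.469). Rgs16 (-0.18), Gnai2 (-0.07) and Gng10 (-0.07) followed. Without WT animal 60 the estimates of Rgs16 and Gnai2 were -0.0811 and -0.0326, and without Ts1Cje animal 94 that of Gng10 was -0.0349.

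Rgs2 showed a similar arrangement in hippocampus. It stood at 8.19, 8.25, 8.31, 8.29 and 8.24 in the WT animals and at 7.94 to 8.68 in Ts1Cje (median 8.43). Of the Ts1Cje animals 4 lay above every WT animal and animal 64 below. The difference was 0.14 (SE 0.108, unadjusted p = 0.23, limma), and 0.21 without animals 60 and 64 (unadjusted p = 0.0142, adjusted p = 0.514). It was 0.227 without animal 64 alone and 0.0794 without animal 97. The activity-induced genes had a median of 0.25, with 12 of 12 above 0 and none called. Gnal (-0.01) and Gng7 (-0.01) had estimates near 0 in hippocampus, where the striatal markers had a median of 0.02.

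**Figure D4:**
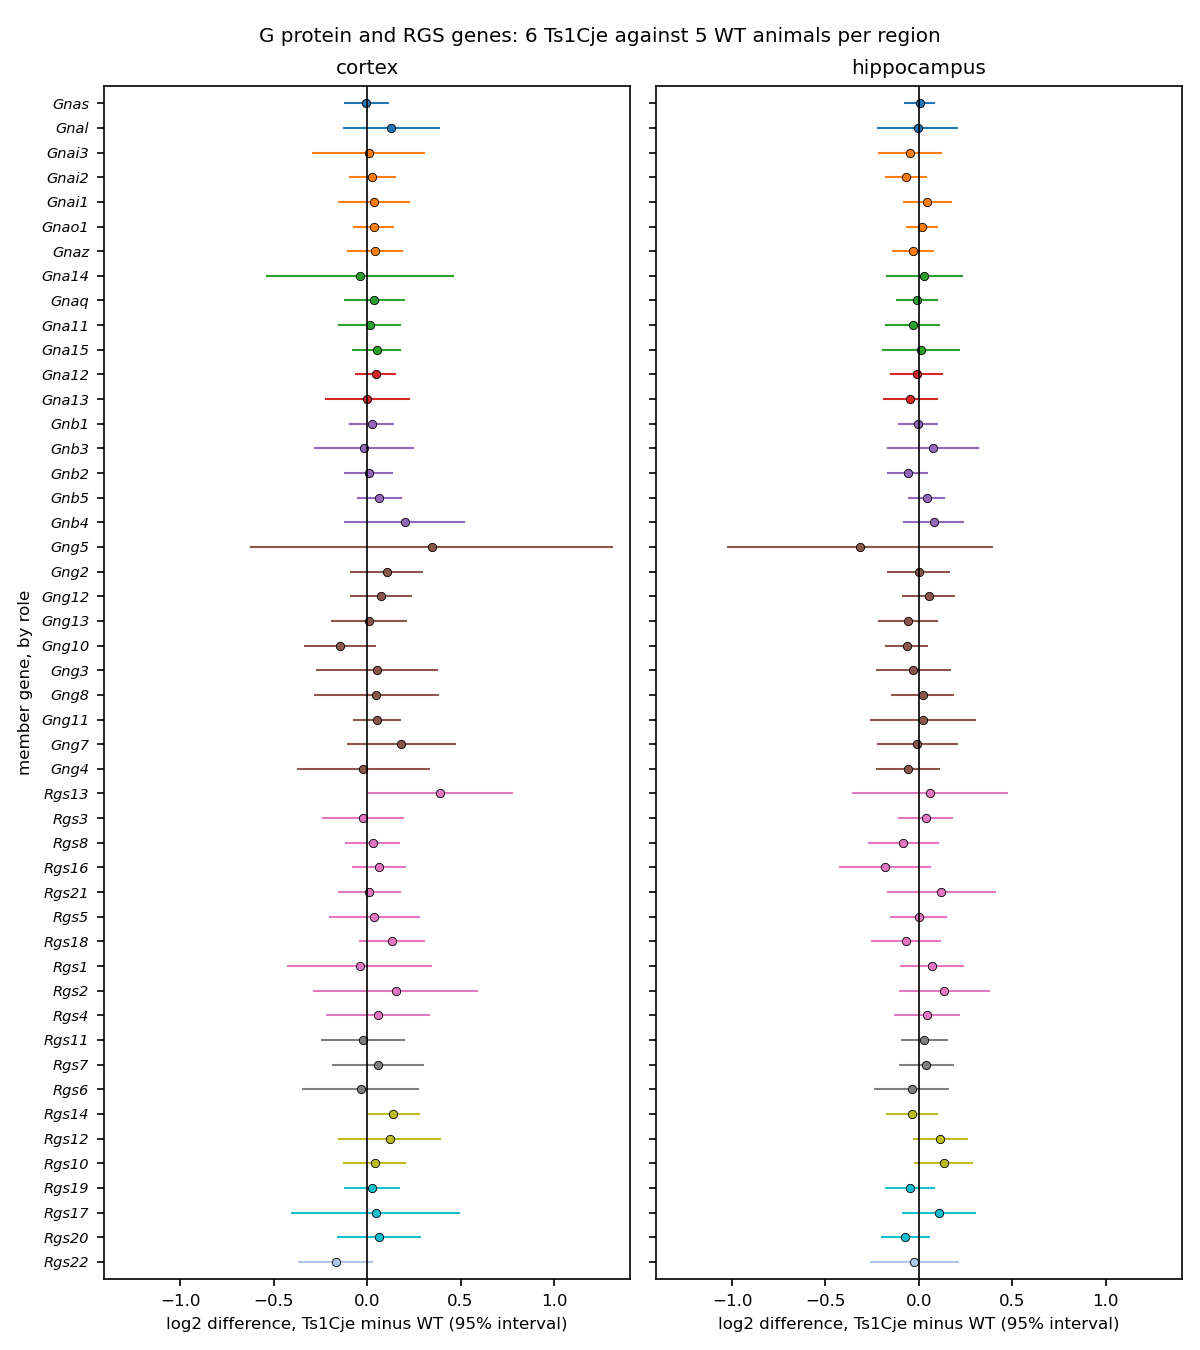
Differences in log2 signal between 6 Ts1Cje and 5 WT animals for the 48 members in cortex and hippocampus, grouped by role. Points are limma estimates and lines 95% intervals on the deposited values. Every line crosses 0 except those of Rgs13 and Rgs14 in cortex, and Gng5 has the widest line in both regions.

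In the mean of both regions, 0 members were called, beside 0.0445% of all features, and 0 reached an unadjusted p under 0.05, beside 1.73% (limma). The estimates ran from -0.10 (Gng10) to 0.23. Rgs10 (0.09), Rgs12 (0.12), Gnb4 (0.14), Rgs22 (-0.09) and Gnb5 (0.06) followed Gng10 in order of p, and Gnal (0.06), Gng7 (0.09) and Rgs2 (0.15) lay behind. Without animal 60 alone, Gnb4 was 0.0612, Rgs12 0.0554, Rgs2 0.0673, Gng7 0.173 and Gnal near 0. Without animal 64, Rgs2 was 0.272 and Gnal 0.134, and without animal 98, Gng7 was 0.0278. Without animals 60 and 64 the unadjusted p fell under 0.05 for 4 members in cortex (beside 5.97% of all features), 3 in hippocampus (beside 8.37%) and 4 in the mean (beside 8.33%), and the adjusted p passed for none. Rgs2 had the lowest p of these, with a difference of 0.19 in the mean of both regions (unadjusted p = 0.00433, adjusted p = 0.373, limma).

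The genotype effects of the regions were then compared with each other. With limma, 0 members and 0% of all features were called, and 0 members reached an unadjusted p under 0.05, beside 1.44% of all features. The lowest p were those of Rgs14 (difference of the effects -0.15, 95% interval -0.33 to 0.02), Rgs16 (-0.22, -0.49 to 0.05), Rgs18 (-0.18, -0.42 to 0.07) and Rgs22 (0.17, -0.12 to 0.45). The Rgs16 value was -0.115 without animal 60, that of Rgs18 -0.0978 without animal 94, and that of Rgs22 0.0955 without animal 64. These intervals do not show that the regions respond alike. The counts and intervals above come from a fit that left out the pairing of an animal's arrays. With the animal as a random block, 2 members and 955 of 20239 features reached an unadjusted p under 0.05 (limma). A fixed block gave 1 member and 1024 features, and 0 were called with either block.

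None of the 45 wider pathway genes was called between genotypes in either region. Of these 1 lies in the triplicated stretch, Kcnj6, which encodes a potassium channel subunit opened by beta-gamma pairs. It stood at 8.37 to 8.70 in WT cortex (median 8.53) and at 8.70 to 8.89 in Ts1Cje cortex (median 8.85), where 5 of 6 Ts1Cje arrays lay above every WT array. In hippocampus it stood at 8.02 to 8.34 in WT (median 8.20) and at 8.41 to 8.75 in Ts1Cje (median 8.51), with every Ts1Cje array above every WT array. The differences were 0.29 (SE 0.0776, unadjusted p = 0.00308, adjusted p = 1.00) in cortex and 0.35 (SE 0.0751, adjusted p = 0.295, limma) in hippocampus. The 3 other genes of these channels had estimates below 0 in both regions, and the channel list's medians were -0.06 and -0.02.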

How the data were processed

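Per the labels' protocols, tissue was frozen, RNA with an integrity number above 9 was extracted with one kit for cortex and another for hippocampus. The deposited values are log2 signals that the authors made with RMA, per the submitters' processing notes. Neither the RMA version nor a joint normalization of both regions is given in the sources used here. Distinct values found in both arrays of a pair, in any feature, were counted relative to the number of features. The median was 3.23% between cortex arrays, 3.90% between hippocampus arrays and 0% across regions.

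Of 21225 features, 20239 carried 1 gene symbol and were tested; 986 carried none. limma 3.58.1 in R 4.3.3 (lmFit, eBayes, two-sided, Benjamini-Hochberg over all 20239) compared genotypes within 11 arrays per region and in the animal means, and the regions and their interaction in 22 centred arrays. The steps were tested on simulated data. The number of arrays limits the precision, and no filter was applied to dim features.

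The members, the 7 pathway lists and the 14 marker lists were chosen with earlier results of these data known. The result of 1 pathway list is not reported here. Values in full were given for called members with a region difference of at least 0.5, for the 6 lowest p in each genotype comparison (4 for the interaction), and for Gnal, Gng7 and Rgs2. Pairing comes from the animal number in the titles. After group means were removed, an animal's arrays correlated across features at a median r of 0.265 (0.0523 to 0.761). The title of 2 arrays gives animal 60 where the description gives 61, and the title was used. Alternatives covered normalization, prior, weights, filter, threshold, blocks and left-out animals.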

Additional observations from a re-analysis of the deposited data

Results flagged for a closer look

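Within each group of 5 or 6 arrays, the highest or lowest array was compared with its nearest neighbour for every member, relative to the range of the group (Dixon's criterion at 95%). Of 192 such comparisons, 43 passed, in 32 genes, where chance passes about 1 in 20. WT animal 60 gave 17 of them and Ts1Cje animal 64 gave 20, the animals whose arrays had the narrowest spread of values in their regions. All values here are deposited log2 signals.

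In the WT cortex group, animal 60 stood below the rest for Gna11 at 10.53, Gnai1 at 11.05, Gnaq at 10.81, Gnaz at 9.86, Gnb1 at 13.01, Gnb4 at 8.52, Gng12 at 10.86, Gng5 at 6.78, Rgs5 at 10.53, Rgs6 at 9.14, Rgs17 at 8.94 and Gng13 at 8.20. It stood above the rest for Gna14 at 6.69 and Rgs3 at 7.37. In the Ts1Cje cortex group, animal 64 stood below the rest for Gna11 at 10.43, Rgs2 at 8.87, Rgs4 at 11.04, Rgs7 at 10.83, Rgs6 at 9.15, Rgs17 at 8.90 and Rgs20 at 8.31. It stood above the rest for Gna14 at 6.73, Gnb3 at 6.71, Gng8 at 6.86 and Rgs3 at 7.38. In the WT hippocampus group, animal 60 stood below the rest for Gng10 at 7.88. It stood above the rest for Gnai2 at 10.69 and Rgs3 at 6.83. In the Ts1Cje hippocampus group, animal 64 stood below the rest for Gnai3 at 7.99, Gnao1 at 12.04, Gnaq at 10.52, Gng2 at 10.29, Gng5 at 6.88 and Rgs7 at 9.93. It stood above the rest for Gng7 at 10.31, Rgs11 at 7.87 and Rgs10 at 9.43.

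The other 6 came from other animals. WT animal 98 was lowest in hippocampus for Gnb5 at 10.13 and Rgs21 at 2.66, and WT animal 95 was lowest in cortex for Rgs16 at 8.45. Ts1Cje animal 63 was highest in cortex for Gnao1 at 12.78 and lowest for Gnb2 at 11.21, and Ts1Cje animal 94 was lowest in hippocampus for Gng10 at 7.76. Among these 43, the widest gap in log2 units, though not relative to the range, was that of Gng5, at 6.78 in the cortex of animal 60, where the other WT cortex arrays ranged from 8.91 to 9.14.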

How the results depend on the processing

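No member was called between the genotypes, in either region, in their mean or in the difference of the effects, under any alternative that was run. Of the genotype estimates given by name, those near 0 in hippocampus changed sign. Gnal was 0.013 after quantile normalization, 0.00867 with array weights, 0.00374 without animals 60 and 64, 0.00913 on centred arrays, 0.024 in animals 87 to 98 alone, and -0.0637 to 0.0606 when 1 animal was left out. Gng7 was 0.00567, 0.00316, 0.0157 and 0.00851 under the first 4 of these, 0.0246 in animals 60 to 65 alone, and -0.0634 to 0.0716 when 1 animal was left out. Rgs2 was -0.0365 in animals 60 to 65 alone. In the mean of both regions Gnal ran from -0.000911 to 0.134 when 1 animal was left out. Between regions, arrays that were not centred gave 10 members at least 2-fold different in place of 3, and turned Gna12 (-0.44), Gna14 (-0.25), Gnai2 (-0.50), Gnai3 (-0.10), Gnaq (-0.44), Gnas (-0.53), Gnb1 (-0.42), Gnb3 (-0.43), Gng2 (-0.33), Rgs13 (-0.18), Rgs3 (-0.40) and Rgs8 (-0.47). Quantile normalization turned Gnb1 (-0.0833). WT animals alone gave 20 called members in place of 31, with fewer arrays, and leaving out 1 animal gave 28 to 32, the lost calls being those of Gnb3, Gng8, Rgs8 and Gna14. With the animal as a replicate block, which uses the pairing of an animal's arrays, 33 members were called, 31 of them shared with the fit without it, and 0 in the difference of the genotype effects. The cause of these shifts was not tested. The number of arrays limits the precision, and 9 members were dim.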
